A study of Mus musculus with 12 samples.

Results

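Of the 56923 genes counted in mouse back skin, 10 genes of the S100 family are described here: *S100a8*, *S100a9*, *S100a7a*, *S100a3*, *S100a4*, *S100a6*, *S100a10*, *S100a11*, *S100a14* and *S100a16*. They were chosen by name, with earlier results of these data known, and all 10 were among the 18529 genes with enough reads to test. Skin of 12 mice was profiled by bulk RNA-seq, 3 mice for each combination of genotype (WT or labelled *Lcn2*-/-) and treatment (control or IMQ). By the study's methods all were C57BL/6 females 8 to 10 weeks old, the *Lcn2*-/- mice were a purchased knockout line and the WT mice littermates. For 6 days the shaved back received either a vehicle cream or 5% imiquimod (IMQ) cream, which produces psoriasis-like lesions. The sample labels instead call the genotype a knockdown and the treatment of the controls none. Each library is described as 1 mouse, and p-values measure the spread between the mice of these 12 libraries.

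S100 proteins are small calcium-binding proteins with paired EF-hand motifs. S100A8 and S100A9 form the heterodimer calprotectin, an alarmin that binds zinc and manganese and signals through TLR4 and RAGE (the product of *Ager*). They are abundant in neutrophils and are also made by keratinocytes of inflamed skin. S100A7 (psoriasin) is an antimicrobial keratinocyte protein, and S100A3 is a protein of the hair cuticle. S100A10 and S100A11 bind annexins A2 and A1, respectively.

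All 10 genes lie on chromosome 3 in the GRCm38 annotation. In order of position they are *S100a14*, *S100a16*, *S100a3*, *S100a4*, *S100a6*, *S100a7a*, *S100a8* and *S100a9*, then, 2820 kb further on, *S100a11* and *S100a10*. The gaps were 10.3 kb between *S100a7a* and *S100a8* and 22.6 kb between *S100a8* and *S100a9*, and *S100a9* alone is on the minus strand. The submitters' processing notes name mm8 as the genome build, so these positions belong to the annotation used for names and not to the authors' alignment. Below are the promoter windows (RefSeq, GRCm38.p6, from 250 bases before to 50 bases after the start site) of the 3 alarmin genes and of *S100a11*, the members whose levels rose most in WT skin. Capitals mark matches, on either strand, to the AP-1 letters TGANTCA, the STAT letters TTCNNNGAA or the C/EBP letters TTGCNNAA.
S100a8, chr3:90668821-90669120, plus strand: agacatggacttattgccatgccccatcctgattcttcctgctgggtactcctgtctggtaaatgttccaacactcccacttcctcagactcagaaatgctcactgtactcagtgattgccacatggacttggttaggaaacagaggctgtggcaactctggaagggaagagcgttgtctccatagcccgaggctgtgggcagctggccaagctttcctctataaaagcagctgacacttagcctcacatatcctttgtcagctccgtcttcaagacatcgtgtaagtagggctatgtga
S100a9, chr3:90695672-90695971, minus strand: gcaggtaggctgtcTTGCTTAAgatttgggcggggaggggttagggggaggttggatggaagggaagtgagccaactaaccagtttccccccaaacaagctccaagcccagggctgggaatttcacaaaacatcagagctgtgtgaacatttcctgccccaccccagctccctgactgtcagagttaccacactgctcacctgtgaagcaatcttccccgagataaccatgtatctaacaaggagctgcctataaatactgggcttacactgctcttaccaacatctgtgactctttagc
S100a7a, chr3:90654052-90654351, plus strand: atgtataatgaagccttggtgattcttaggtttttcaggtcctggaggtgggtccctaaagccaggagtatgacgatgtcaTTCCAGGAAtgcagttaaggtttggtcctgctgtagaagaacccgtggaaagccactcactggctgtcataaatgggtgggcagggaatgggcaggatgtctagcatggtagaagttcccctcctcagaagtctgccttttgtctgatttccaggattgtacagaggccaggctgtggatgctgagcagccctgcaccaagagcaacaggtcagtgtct
S100a11, chr3:93520246-93520545, plus strand: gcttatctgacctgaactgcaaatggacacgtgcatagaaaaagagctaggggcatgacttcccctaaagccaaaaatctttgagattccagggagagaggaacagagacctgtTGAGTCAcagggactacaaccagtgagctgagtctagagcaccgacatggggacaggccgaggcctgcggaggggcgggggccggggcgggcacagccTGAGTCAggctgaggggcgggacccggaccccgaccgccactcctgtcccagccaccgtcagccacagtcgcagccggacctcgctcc

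*S100a8* held none of these motifs in this window. *S100a9* held 1 C/EBP match, 236 bases before its start site, *S100a7a* held 1 STAT match 169 bases before it, and *S100a11* held 2 AP-1 matches, at 136 and 38 bases before it. Among all 32851 windows of 300 bases, AP-1 was found in 7.81%, STAT in 8.3% and C/EBP in 10.8%. Windows were found for 8 of the 10 genes (12 windows in all), and the only other match was 1 AP-1 match in a window of *S100a16*. A match describes these letters only.

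Library totals lay between 16448226 and 28592110 counts. *Lcn2* itself was counted in every library: 136, 201 and 86 reads in WT control mice, 1010, 2723 and 1572 in WT IMQ mice, 320, 173 and 357 in control mice labelled *Lcn2*-/-, and 561, 511 and 830 in IMQ mice labelled *Lcn2*-/-. After IMQ the *Lcn2*-/- label minus WT log2 difference for *Lcn2* was -1.49 (SE 0.40, adjusted p = 0.0525). Without IMQ it was 0.87 (SE 0.41, adjusted p = 0.794), and the labelled mice (9.21 to 15.9 CPM) all lay above the WT mice (4.57 to 8.63 CPM). Reads were thus assigned to *Lcn2* under the label, but counts per gene do not tell which of its exons they cover. The paper lists *Lcn2* among the genes downregulated in knockout IMQ skin. It also examined LCN2 by Western blot and *Lcn2* by qPCR in IMQ-treated WT and *Lcn2*-/- mice. The genotype is given throughout as a label. The submitters' extraction text mentions retinas, whereas 4 photoreceptor genes (*Sag*, *Gnat1*, *Pde6b* and *Rcvrn*) had at most 24 reads in any library. Levels below are CPM, counts scaled to the TMM-normalized library size, and a gene was called when its adjusted p in edgeR's quasi-likelihood test, corrected over all tested genes by the Benjamini-Hochberg method, was under 0.05.

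IMQ raised most of these 10 S100 genes in WT skin, and by far the largest of their changes were those of *S100a8* and *S100a9*. Of the 10 genes, 7 were called higher and 0 lower, whereas 14.2% of all tested genes were called higher and 14.3% lower. The median log2 fold change of the 10 genes was 1.01, beside -0.02 over all tested genes. In mice labelled *Lcn2*-/-, 3 genes were called higher (*S100a8*, *S100a9* and *S100a11*) and 1 lower (*S100a3*), whereas 14.1% of all tested genes were called higher and 11.2% lower. The median there was 0.30, beside -0.05 over all genes.

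**Figure D1:**
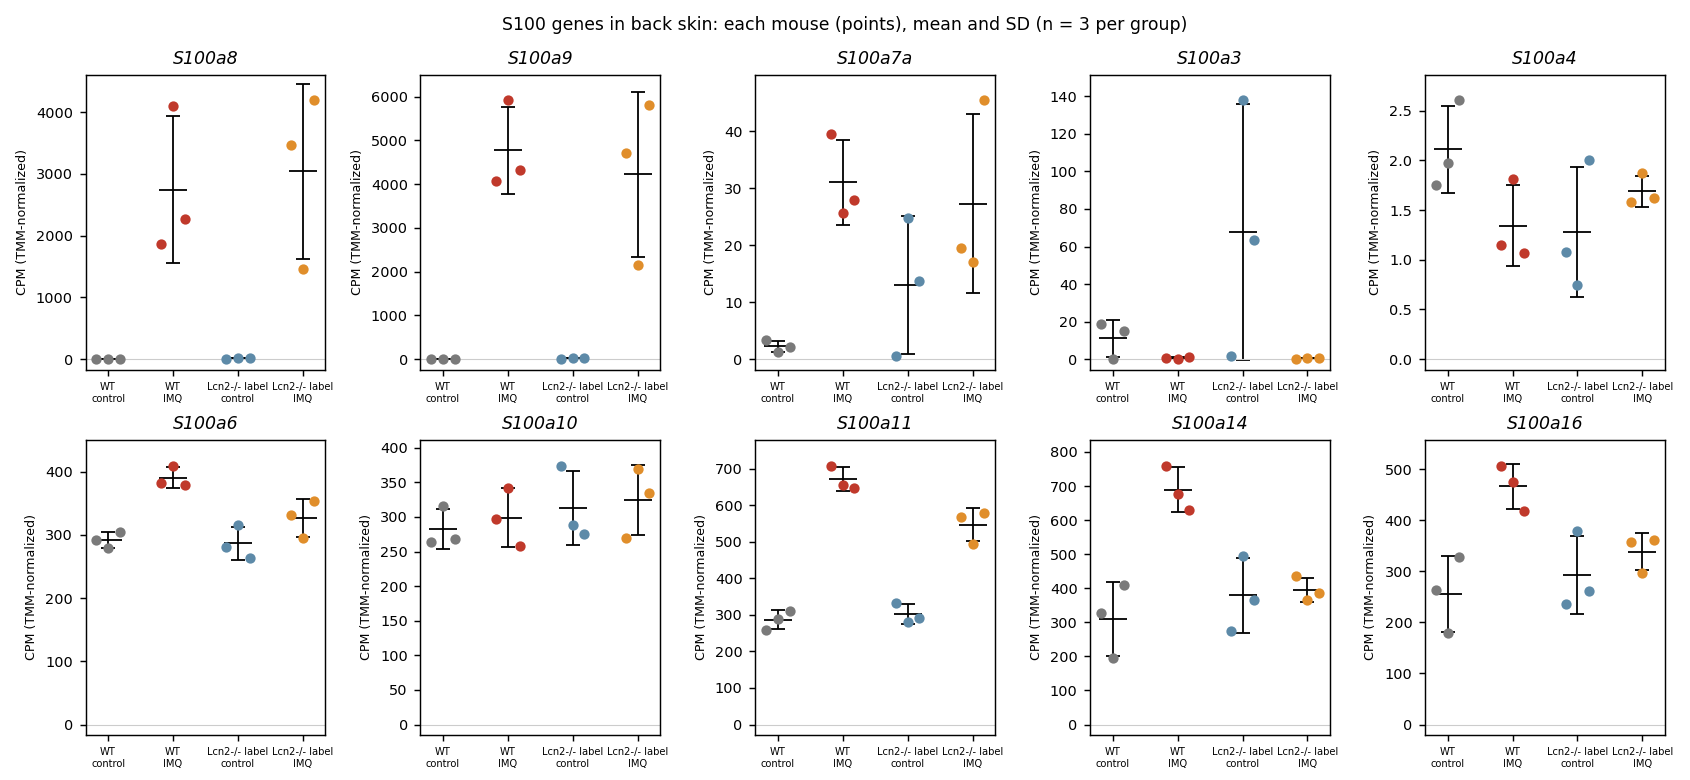
CPM (y axis, 0 included, a different scale in each panel) of the 10 S100 genes in each mouse (points) by group (x axis), with the mean and SD of 3 mice. S100a8 and S100a9 were at most 31.6 CPM in any control mouse and at least 1461 CPM in any IMQ mouse, and S100a3 reached 15.1 CPM or more in 4 of the 6 control mice.

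*S100a8* encodes the smaller subunit of calprotectin. It was at 7.85, 1.72 and 3.93 CPM in WT control mice and at 1862, 4103 and 2268 CPM in WT IMQ mice. Control mice labelled *Lcn2*-/- had 4.59, 14.5 and 15.9 CPM, and IMQ mice of that label had 3468, 1461 and 4190 CPM. Each IMQ mouse was far above each control mouse, while the genotype labels overlapped both with and without IMQ. With IMQ the log2 fold change was 9.25 (SE 0.81, adjusted p = 1.66e-05) in WT mice and 8.03 (SE 0.77, adjusted p = 6.03e-05) in mice labelled *Lcn2*-/-.

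*S100a9* encodes the partner subunit. WT control mice had 11.3, 5.45 and 4.41 CPM and WT IMQ mice 4080, 5911 and 4321 CPM. Under the *Lcn2*-/- label, control mice had 10.3, 19.7 and 31.6 CPM and IMQ mice 4718, 2146 and 5796 CPM. As for *S100a8*, the second IMQ mouse of that label was the lowest of the 6 IMQ mice, and no IMQ mouse approached the controls. Its rise on the log2 scale was 9.40 (SE 0.65, adjusted p = 3.24e-06) in WT mice and 7.68 (SE 0.61, adjusted p = 2.00e-05) under the *Lcn2*-/- label.

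The balance of the S100 transcripts therefore differed between treated and control skin. *S100a8* and *S100a9* made up between 0.505% and 1.32% of the summed CPM of the 10 genes in WT control mice and between 68.8% and 79.5% in WT IMQ mice. The shares were between 0.983% and 2.99% and between 66.2% and 82.9% in the corresponding mice labelled *Lcn2*-/-. The other 8 genes together lay between 1262 and 1643 CPM in WT control mice and between 2364 and 2696 CPM in WT IMQ mice. The ratio of *S100a9* to *S100a8* CPM lay between 1.12 and 3.18 in WT control mice, between 1.44 and 2.19 in WT IMQ mice, between 1.36 and 2.25 in control mice labelled *Lcn2*-/- and between 1.36 and 1.47 in IMQ mice of that label. These ranges overlapped.

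**Figure D2:**
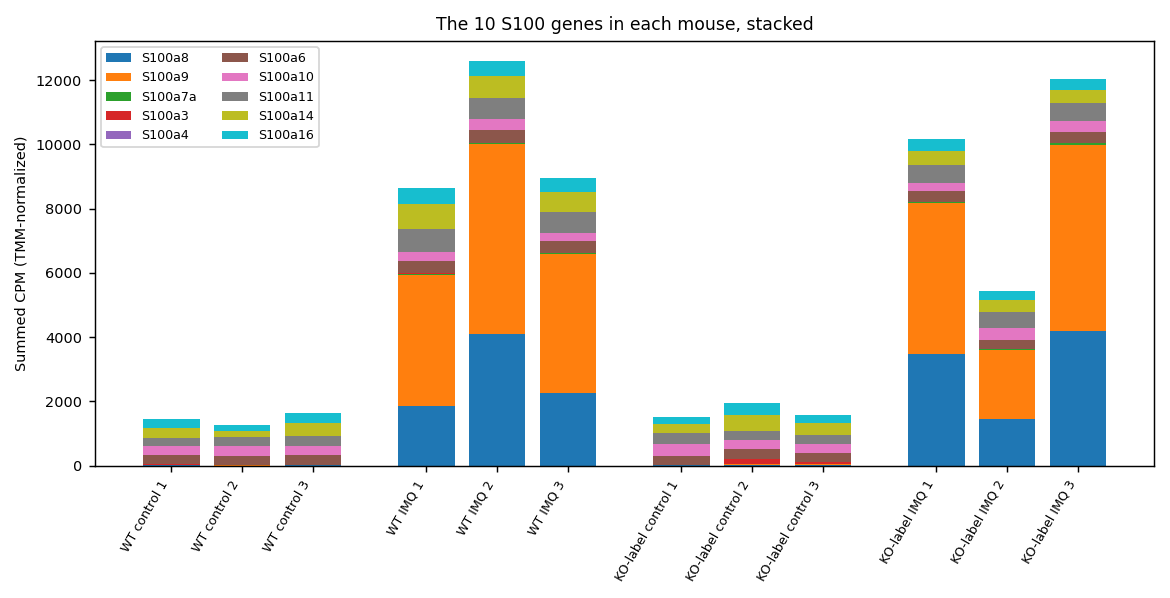
Summed CPM (y axis) of the 10 S100 genes in each of the 12 mice (bars), stacked by gene; KO-label stands for the Lcn2-/- label. The bars reach between 1269 and 1956 CPM in control mice and between 5446 and 12601 CPM in IMQ mice, and most of the bar of every IMQ mouse is S100a8 and S100a9.

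Per kilobase of annotated exon, the order of the genes changed with IMQ. In WT control skin *S100a11* led with a mean of 561 CPM per kb, and its lowest mouse (506) was above every mouse for any other member. *S100a10*, *S100a6*, *S100a14* and *S100a16* followed with means of 233, 214, 180 and 159 CPM per kb, and each neighbouring pair overlapped between mice. *S100a9* and *S100a8* had 13.5 and 6.48 CPM per kb and also overlapped. In WT IMQ skin *S100a9* (9140 CPM per kb) and *S100a8* (3954) came first, and their mice did not overlap. *S100a11* (1312 CPM per kb) came next, ahead of *S100a14* (399). The length of *S100a3* is that of all its annotated exons, 5660 bases, so its level per kb is the least certain.

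Genes listed as neutrophil markers also rose. Of 14 tested neutrophil markers, 12 were called higher with IMQ in WT mice and 14 under the *Lcn2*-/- label, led in both by the stefins *Stfa2* (log2 fold change 7.64 and 6.77), *Stfa2l1* (6.84 and 6.42) and *Stfa3* (5.76 and 5.49). *Stfa3* alone had a mean of 2274 CPM in WT IMQ mice and 1610 CPM in IMQ mice labelled *Lcn2*-/-. It would outweigh the other markers in a sum, and it did not follow all of them. In WT control mice *Stfa3* had 52.6, 13.6 and 59.9 CPM, beside 14.7, 17.3 and 5.15 CPM for *Csf3r*. After IMQ the mean of *Stfa2* was also lower under the *Lcn2*-/- label than in WT mice (104 and 160 CPM), while that of *Stfa2l1* was higher (12.8 and 9.60 CPM). Whether the stefin reads came from neutrophils was not tested. The summed CPM of the markers without the stefins lay between 8.34 and 29.1 in WT control mice, between 179 and 237 in WT IMQ mice, between 13.6 and 38.4 in control mice labelled *Lcn2*-/- and between 223 and 562 in IMQ mice of that label. *Ly6g*, the defining surface marker of mouse neutrophils, had at most 5 reads in control mice and between 7 and 18 in IMQ mice. Summed *S100a8* and *S100a9* CPM was between 0.247 and 1.00 times that marker sum in WT control mice and between 31.7 and 42.2 times in WT IMQ mice. Under the *Lcn2*-/- label it was between 0.622 and 2.52 times in control mice and between 16.2 and 28.9 times in IMQ mice. Of 15 keratinocyte markers, 11 were called higher and 1 lower in WT mice, and 10 higher and 1 lower under the *Lcn2*-/- label. The largest log2 fold changes were those of the activation keratins *Krt6b* (9.27 and 8.05), *Krt16* (7.92 and 5.87) and *Krt6a* (6.39 and 4.62), and *Krt15* was the gene called lower in both (-2.23 and -2.13). The part of either cell type in the S100 levels was not tested, and in bulk skin a different number of cells and a different amount of RNA per cell cannot be told apart.

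**Figure D3:**
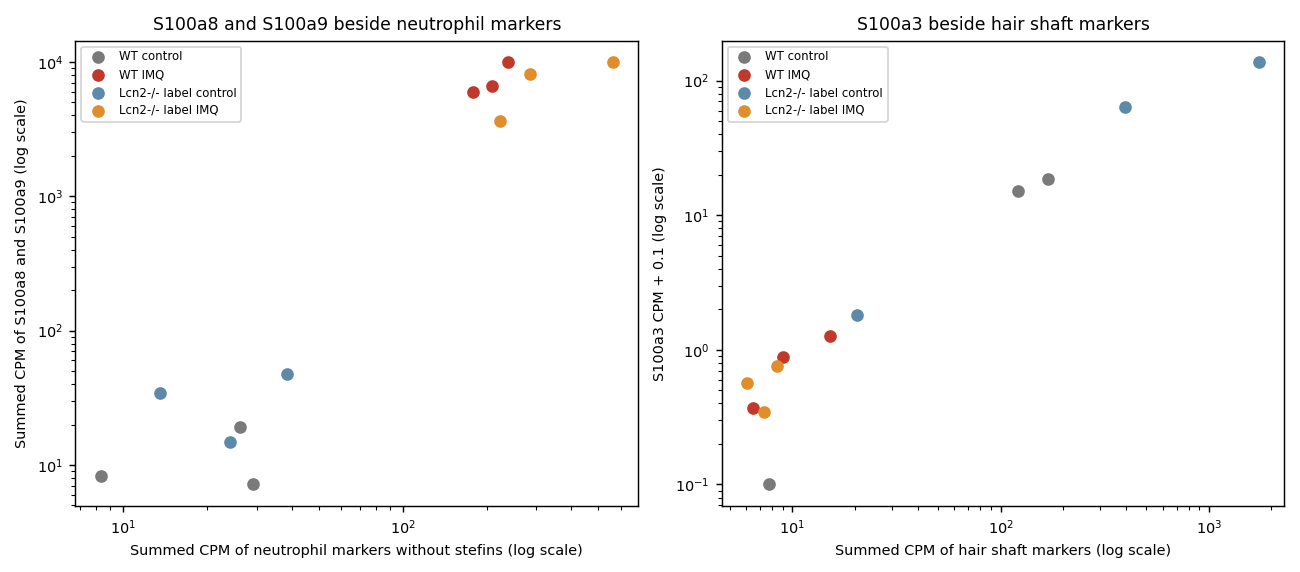
Left, summed CPM of S100a8 and S100a9 (y axis) against summed CPM of the neutrophil markers without stefins (x axis); right, S100a3 CPM plus 0.1 (y axis) against summed CPM of the hair shaft markers (x axis); all axes are log scales and each point is 1 mouse. On the left the control mice (7.17 to 47.4 CPM) and the IMQ mice (3607 to 10014 CPM) form separate clouds, and on the right the highest S100a3 values belong to the mice with the highest hair shaft sums.

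*S100a7a*, the mouse relative of psoriasin, had a mean of 22.6 CPM per kb of exon in WT IMQ skin, against 3954 for *S100a8*. On the CPM scale it was at 3.32, 1.29 and 2.12 CPM in WT control mice and at 39.6, 25.7 and 27.9 CPM in WT IMQ mice. Control mice labelled *Lcn2*-/- had 0.492, 24.7 and 13.8 CPM and IMQ mice of that label 19.5, 17.0 and 45.4 CPM. The WT groups did not overlap, whereas the groups labelled *Lcn2*-/- did, with 1 control mouse close to 0. On the log2 scale the change was 3.79 (SE 0.97, adjusted p = 0.0137) in WT mice and 1.08 (SE 0.85, adjusted p = 0.377) under the *Lcn2*-/- label. The WT call was lost without WT control mouse 2 (adjusted p = 0.0752) or 3 (adjusted p = 0.0585).

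*S100a11*, whose product binds annexin A1, was the only other member called higher under both genotype labels. WT control mice had 259, 290 and 311 CPM, and WT IMQ mice 708, 656 and 648 CPM. Under the *Lcn2*-/- label, control mice had 333, 280 and 291 CPM and IMQ mice 566, 494 and 580 CPM. Treated and control mice did not overlap under either label. The log2 fold change was 1.23 (SE 0.12, adjusted p = 3.56e-05) in WT mice and 0.86 (SE 0.12, adjusted p = 0.000692) under the *Lcn2*-/- label. Its processed copy *S100a11-ps* had at most 4 reads in any library.

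*S100a14* and *S100a16* are neighbours expressed in epithelia. *S100a14* was at 326, 195 and 411 CPM in WT control mice and at 760, 677 and 630 CPM in WT IMQ mice. Control mice labelled *Lcn2*-/- had 276, 496 and 366 CPM and IMQ mice 435, 364 and 385 CPM. WT IMQ mice were therefore above all 9 other mice. The log2 fold change was 1.15 (SE 0.26, adjusted p = 0.00682) in WT mice and 0.06 (95% interval -0.50 to 0.62, adjusted p = 0.890) under the *Lcn2*-/- label.

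*S100a16* had 263, 179 and 327 CPM in WT control mice, 507, 474 and 419 CPM in WT IMQ mice, 237, 379 and 262 CPM in control mice labelled *Lcn2*-/- and 357, 297 and 362 CPM in IMQ mice of that label. Again only the WT groups did not overlap. With IMQ it was 0.86 higher on the log2 scale in WT mice (SE 0.22, adjusted p = 0.0135) and 0.21 (95% interval -0.27 to 0.69, adjusted p = 0.518) under the *Lcn2*-/- label. The WT call was lost without WT IMQ mouse 1 (adjusted p = 0.0534).

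*S100a6* (calcyclin) changed little. It lay between 280 and 305 CPM in WT control mice and between 379 and 409 CPM in WT IMQ mice, or 0.42 higher on the log2 scale (SE 0.11, adjusted p = 0.0164). This call was lost without WT control mouse 1 (adjusted p = 0.0554). Under the *Lcn2*-/- label the ranges of 263 to 315 CPM and 295 to 354 CPM overlapped, and the log2 fold change was 0.19 (95% interval -0.06 to 0.43, adjusted p = 0.241).

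*S100a10*, the annexin A2 partner, was called in neither response. Its group means were 283 ± 28.7 CPM in WT control, 299 ± 42.2 in WT IMQ, 313 ± 53.3 in control labelled *Lcn2*-/- and 325 ± 50.4 in IMQ labelled *Lcn2*-/- mice (SD, n = 3). The log2 fold change was 0.08 (95% interval -0.28 to 0.44) in WT mice and 0.05 (95% interval -0.31 to 0.41) under the *Lcn2*-/- label.

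*S100a4*, a gene of fibroblasts and leukocytes, was counted at only 14 to 49 reads per library and between 0.745 and 2.60 CPM. It was called in neither response, with log2 fold changes of -0.66 (95% interval -1.51 to 0.20) in WT mice and 0.40 (95% interval -0.45 to 1.25) under the *Lcn2*-/- label. Of 10 fibroblast markers, 0 were called higher and 4 lower in WT mice, led by *Dpt* (-1.28), *Thy1* (-0.89) and *Col1a2* (-0.81), and 6 higher and 0 lower under the label, led by *Col3a1* (1.52), *Pdgfrb* (0.90) and *Col1a1* (0.89). Of 10 macrophage markers, 1 was called higher in WT mice (*Adgre1*, 1.68) and 9 under the label, led by *Adgre1* (2.42), *C1qc* (2.13) and *Cd68* (2.10), and 0 lower in either. Of its exon bases, 51.7% are shared on the same strand with the annotated gene *Gm42674*, which had 0 reads in all 12 libraries. How the authors' counting treated reads on shared bases is not given in the sources used here, so the level of *S100a4* is uncertain.

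*S100a3* was the only member called lower with IMQ. Its reads were 402, 0 and 284 in WT control mice, 13, 4 and 24 in WT IMQ mice, 52, 2589 and 1423 in control mice labelled *Lcn2*-/-, and 4, 8 and 11 in IMQ mice of that label. The 0 reads of WT control mouse 2 allow a level of up to 0.129 CPM (3 reads, counting error only). Control mice thus ranged up to 138 CPM, while every IMQ mouse was at or below 1.16 CPM. The log2 fold change was -7.19 (SE 1.89, adjusted p = 0.0209) under the *Lcn2*-/- label, where the groups did not overlap, and -3.85 (SE 1.68, adjusted p = 0.114) in WT mice, where they did. Leaving out any 1 of the 3 IMQ mice labelled *Lcn2*-/- ended the call (adjusted p between 0.0747 and 0.0773).

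The same control mice were high for hair shaft genes. The summed CPM of the hair shaft markers was 169, 7.68 and 121 in WT control mice, 20.3, 1739 and 394 in control mice labelled *Lcn2*-/-, and between 6.07 and 15.1 in the 6 IMQ mice. Of 13 tested hair shaft markers, 3 were called lower and 1 higher with IMQ in WT mice, and 12 were called lower and 0 higher under the *Lcn2*-/- label. The largest falls were those of *Krt35* (-7.60), *Krt36* (-5.12) and *Krt32* (-3.94) in WT mice, where *Krt84* (2.87) was the gene called higher, and of *Krt81* (-13.48), *Krt33b* (-12.76) and *Krt31* (-11.23) under the label. There *Krt81* and *Krt33b* were at 0 CPM in every IMQ mouse and also in their lowest control mouse. *Krt31* was at 0.0984 CPM in its lowest control mouse, so the sizes of these falls are uncertain. Of the 13 markers, 6 were lower without overlap under the label, beside 22.8% of all tested genes. The hair follicle proteins *Tchh* (trichohyalin) and *Padi3*, which citrullinates S100A3, were called lower under that label with log2 fold changes of -6.77 (SE 1.70, adjusted p = 0.0173) and -6.13 (SE 1.65, adjusted p = 0.0229). The part of hair follicle content in the *S100a3* levels was not tested.

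**Figure D4:**
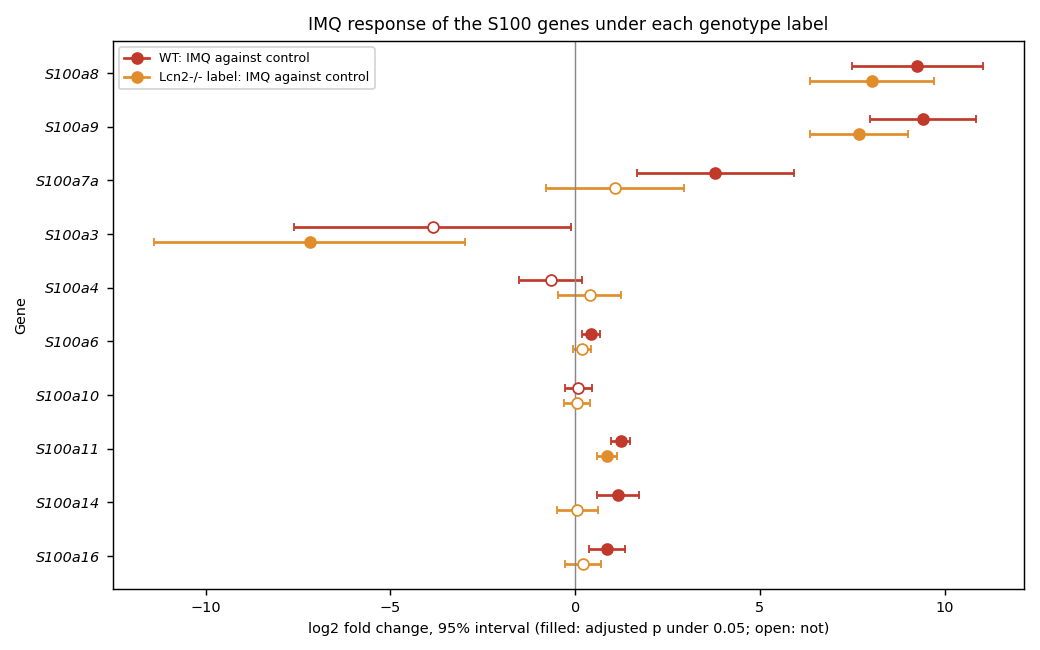
Log2 fold change of the 10 S100 genes with IMQ against control (x axis) in WT mice and in mice labelled Lcn2-/-, with 95% intervals; filled points have an adjusted p under 0.05. S100a8 and S100a9 lie between 7.68 and 9.40 under both labels, and S100a14 lies at 1.15 in WT mice and 0.06 under the Lcn2-/- label.

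The genotype labels were then compared after IMQ. None of the 10 genes was called: 0 were higher and 0 lower, whereas 2.19% of all tested genes were called higher and 2.6% lower. At an unadjusted p under 0.05 there were 3, all lower under the *Lcn2*-/- label. The share of all tested genes at that cut is not given here, so this number has no background to be read against. *S100a8* differed by a log2 fold change of 0.15 (95% interval -1.08 to 1.38) and *S100a9* by -0.18 (95% interval -1.17 to 0.81), so the data leave room for differences of about 1 log2 unit in either direction.

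For 4 members the IMQ mice did not overlap between the labels, and all 4 were lower under the *Lcn2*-/- label. On the log2 scale, the *Lcn2*-/- label minus WT difference was -0.80 for *S100a14* (SE 0.26, adjusted p = 0.0830), -0.46 for *S100a16* (SE 0.22, adjusted p = 0.203), -0.29 for *S100a11* (SE 0.12, adjusted p = 0.150) and -0.26 for *S100a6* (SE 0.11, adjusted p = 0.169). Of all tested genes, 17.3% were lower without overlap in this comparison. *S100a3* was at -0.74 with overlapping groups (95% interval -5.57 to 4.10). For *S100a14*, DESeq2 (adjusted p = 0.0276) and edgeR fitted on the compared mice only (adjusted p = 0.0172) did make the call. Of 15 keratinocyte markers, 3 were called lower and 0 higher, namely *Dsg3* (-1.09), *Dsc3* (-0.88) and *Trp63* (-0.85). The summed CPM of the keratinocyte markers lay between 38444 and 57656 in WT IMQ mice and between 22631 and 32940 in IMQ mice labelled *Lcn2*-/-. Of 10 fibroblast markers, 3 were called higher and 0 lower, namely *Col1a1* (1.23), *Col1a2* (1.06) and *Col3a1* (1.01), and their summed CPM lay between 10567 and 11296 in WT IMQ mice and between 20630 and 21438 under the label. Of 10 macrophage markers, 1 was called higher (*Mertk*, 0.84) and 0 lower, with sums between 2179 and 3856 CPM and between 3666 and 4933 CPM. Of 14 neutrophil markers 1 was called higher (*Camp*, 2.97) and 0 lower. By sign 10 of these 14 were higher and 4 lower, and 6 were higher and 1 lower without overlap, beside 16% and 17.3% of all tested genes. Their sum without the stefins lay between 179 and 237 CPM in WT IMQ mice and between 223 and 562 CPM under the label. The part of these shifts in the S100 differences was not tested. Calls in this comparison depended on which mouse was left out. Over all tested genes, 0 were called higher and 0 lower without WT IMQ mouse 1 or 3 or without *Lcn2*-/--labelled IMQ mouse 3. There were 1 higher and 0 lower without *Lcn2*-/--labelled IMQ mouse 2, and 1 higher and 3 lower without mouse 1 of that group. Without WT IMQ mouse 2 the counts instead went up to 1288 higher and 1438 lower, from 405 and 481 with all mice.

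**Figure D5:**
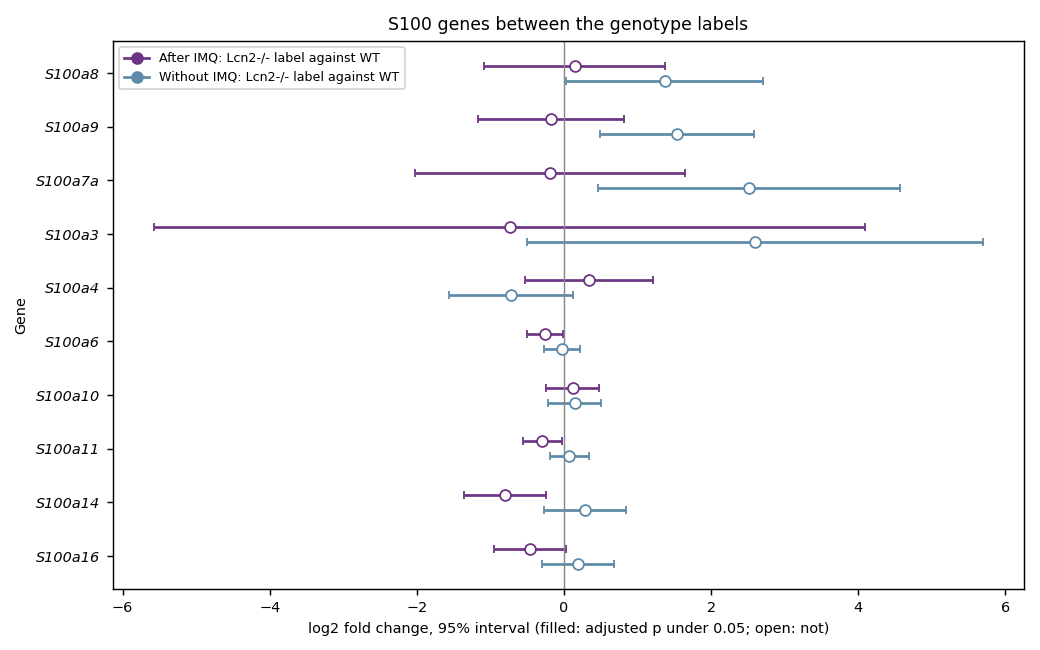
Log2 fold change of the 10 S100 genes in mice labelled Lcn2-/- against WT mice (x axis), after IMQ and without IMQ, with 95% intervals; every point is open, since no adjusted p was under 0.05. After IMQ, S100a14 lies lowest at -0.80, next to S100a3 at -0.74 with a far wider interval. Without IMQ, S100a7a and S100a3 lie highest at 2.52 and 2.59.

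Without IMQ, 0 of the 10 genes were called higher and 0 lower, whereas 0.0054% of all tested genes were called in each direction. The 3 alarmin genes had an unadjusted p under 0.05 and higher means under the *Lcn2*-/- label, but all overlapped WT control mice. Here too the share of all tested genes at that cut is not given. On the log2 scale *S100a7a* differed by 2.52 (SE 0.93, adjusted p = 0.681), *S100a9* by 1.54 (SE 0.48, adjusted p = 0.620) and *S100a8* by 1.37 (SE 0.61, adjusted p = 0.749). Control mouse 1 of that label was the lowest of its group for all 3, and without it *S100a7a* was called (3.10, adjusted p = 0.0489). In these 3 mice *S100a7a* was at 0.492, 24.7 and 13.8 CPM, beside hair shaft marker sums of 20.3, 1739 and 394 CPM. In WT control mice it was at 3.32, 1.29 and 2.12 CPM, beside sums of 169, 7.68 and 121 CPM. IMQ mice had 17.0 CPM or more, with sums of at most 15.1 CPM. The part of hair follicle content in the *S100a7a* levels was not tested. *S100a3* differed by 2.59 (95% interval -0.51 to 5.69).

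The IMQ responses under the 2 labels were compared as the difference of their log2 fold changes. For 0 of the 10 genes was this difference called in either direction, whereas 1.37% of all tested genes were called with a larger value under the *Lcn2*-/- label and 0.783% with a smaller one. The log2 difference was -1.09 for *S100a14* (SE 0.36, adjusted p = 0.109) and -1.71 for *S100a9* (SE 0.66, adjusted p = 0.147), and 2 of the 10 genes had an unadjusted p under 0.05. That number also stands without the share of all tested genes at the same cut. For *S100a9* the means after IMQ were 4771 and 4220 CPM, and the control means were 7.06 and 20.5 CPM, in WT and *Lcn2*-/--labelled mice, respectively. *S100a8* (-1.22, 95% interval -3.03 to 0.59) and *S100a7a* (-2.71, 95% interval -5.45 to 0.03) were called in neither direction. Of the marker lists, only fibroblast genes were called here, 3 of 10 with a larger value under the label: *Col1a1* (1.37), *Col3a1* (1.36) and *Col1a2* (1.31).

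Related genes were examined as lists. Of 7 other S100 genes in the table, 3 had enough reads to test, and *S100a1* (-0.96) and *S100b* (-1.04) were called lower with IMQ in WT mice by log2 fold change. Neither was called under the *Lcn2*-/- label. Of 7 genes for fused S100 proteins, which carry an S100 domain joined to a long repeat and serve the cornified layer and hair, 3 were called higher in both responses: *Rptn* (5.54 and 4.36), *Flg* (3.48 and 3.12) and *Hrnr* (2.39 and 1.06). *Flg2* was called lower in both (-2.77 and -3.54), and *Tchh* only in the mice labelled *Lcn2*-/-.

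Among 17 receptors and binding partners, 5 were called higher and 2 lower in WT mice, and 7 higher and 2 lower under the *Lcn2*-/- label. *Cd14*, a co-receptor of TLR4, was higher in both (1.54 and 2.37), as was *Mcam* (0.50 and 0.72), and *Alcam* was lower in both (-1.57 and -1.64). In WT mice *Anxa1* (1.35), *Anxa2* (0.95) and *Ahnak* (0.45) were also called higher and *Cd36* (-1.08) lower. Under the *Lcn2*-/- label *Ly96* (0.95), *Bsg* (0.37), *Myh9* (0.58) and the NADPH oxidase subunits *Cybb* (1.80) and *Cyba* (1.74) were called higher. *Anxa1*, the partner of *S100a11*, was the only gene of the list called between the labels after IMQ (-0.80, SE 0.16, adjusted p = 0.0276) and in the difference of responses (-0.97, SE 0.23, adjusted p = 0.0498). Both calls ended without WT IMQ mouse 1 or 3, where 0 of all tested genes were called lower in either comparison, and the first also without IMQ mouse 2 or 3 of the *Lcn2*-/- label.

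Genes with the most similar profile over the 12 mice were found as the smallest root mean square difference of centred log2 CPM among 15978 genes. For *S100a8* these were *S100a9* (0.40), *Sprr2d* (0.59) and *Tmprss11b* (0.62), and for *S100a9* they were *S100a8*, *Sprr2d* (0.43) and *Tmprss11b* (0.46). *Sprr2d* encodes a small proline-rich protein of the cornified envelope. For *S100a7a* they were *Psors1c2* (0.76), *Serpina9* (0.81) and *Gjb2* (0.87), and for *S100a3* they were *Tchh* (0.78), *Tgm6* (0.81) and *Padi3* (0.86). For *S100a4* they included *Bdh2* (0.27) and *Gstp-ps* (0.28), at a level where few reads set the profile. The other 5 members were added to this comparison after their values were seen. The nearest genes were *Pym1* for *S100a6* (0.06), *Ywhab* for *S100a10* (0.08), *Txndc17* for *S100a11* (0.08), *Nectin1*, a cell adhesion gene, for *S100a14* (0.11) and *Pard6g*, a cell polarity gene, for *S100a16* (0.08). The measure is not scaled to a gene's own spread, so a member that changed little lies close to other genes that changed little. Shared regulation was not tested.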

How the data were processed

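Bulk RNA was measured in the back skin of 12 mice, grouped by the genotype and treatment in their labels. The authors deposited raw counts of reads per Ensembl gene, with no normalization. Per the labels' processing notes the reads were aligned with HISAT to mm8; the counting tool is not given in the sources used here. The paper's methods name DESeq2. Names and positions came from GENCODE M21 (GRCm38), which matched 52073 identifiers (91.5%).

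Counts were TMM-normalized and tested with edgeR 4.0.16 (limma 3.58.1, R 4.3.3), using a robust quasi-likelihood fit of 4 group means over the 12 mice after filterByExpr (minimum count 10, minimum total 15). The SE is the log2 fold change over the square root of F. The interaction is the response under the *Lcn2*-/- label minus that in WT mice. Alternatives were each mouse left out, RLE size factors, DESeq2 1.42.0, 2-fold rules, a replicate block, a fit of the compared mice alone, and either no filter or a minimum of 10 counts per library. The edgeR fit was tested on simulated data. Per-kb levels divide CPM by the union of annotated exons. A count of 3 corresponds to between 0.0984 and 0.201 CPM, which covers counting error only.

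The 10 genes, the lists, the motifs and the tests were chosen with earlier results of these data known. Named in the text are the 10 genes, every called gene of the other S100, fused S100 and receptor lists, the 3 largest called changes of each marker list in each comparison, *Lcn2*, and the 3 nearest profiles (mean of at least 1 CPM) of 5 members, to which the other 5 were added. One nearest profile is not reported here. The photoreceptor genes, *Ly6g*, *Krt15* and *Krt84* were added after the values were seen. Plots used matplotlib 3.10.9 (Python 3.11.15).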

Additional observations from a re-analysis of the deposited data

Results flagged for a closer look

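For 2 of the 10 genes the IMQ response differed between the genotype labels at an unadjusted p under 0.05 in edgeR's quasi-likelihood test, and neither held after adjustment over all tested genes. How many of all tested genes passed that unadjusted cut is not given here. The log2 difference of responses was -1.71 for *S100a9* (SE 0.66, adjusted p = 0.147). With DESeq2 the adjusted p was 0.0468. For *S100a14* it was -1.09 (SE 0.36, adjusted p = 0.109). There DESeq2 gave an adjusted p of 0.0390.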

How the results depend on the processing

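With 3 mice a group, *S100a8* and *S100a9* in both responses and *S100a14* in WT mice were called under every alternative run. *S100a11* was called in both responses in every other fit, but its rise under the *Lcn2*-/- label (1.81-fold) missed both rules that need a fold above 2. Under either of these rules, 5 of the 10 genes instead of 7 were higher in WT mice (*S100a6* and *S100a16* dropped out) and 2 instead of 3 under the label. The deviations of same-numbered mice had correlations between -0.555 and 0.199. With 3 mice a group, these cannot show whether mice of the same number share anything beyond it. The replicate block ended the *S100a3* call under the *Lcn2*-/- label (adjusted p = 0.0555), leaving 0 of the 10 genes called lower there, and changed no other call of the 10 genes. That count was also 0 without the filter (adjusted p = 0.0668), 0 with at least 10 counts in every library, where *S100a3* was not tested, and 0 to 1 with 1 mouse left out. Without the filter *S100a7a* (adjusted p = 0.0658) and *S100a6* (adjusted p = 0.0506) also lost their WT calls. Of the 10 genes, DESeq2 called 1 lower between the labels after IMQ (*S100a14*) and 2 with a smaller response (*S100a9* and *S100a14*), and edgeR on the compared mice alone called 1 lower after IMQ (*S100a14*). With 1 mouse left out, 0 to 1 were called higher between the labels without IMQ (*S100a7a*) and 0 to 1 with a smaller response (*S100a7a* without control mouse 1 of the *Lcn2*-/- label, adjusted p = 0.0299, or *S100a14* without WT control mouse 3, adjusted p = 0.0466). A fold above 2 with an unadjusted p under 0.05 also gave 1 lower in WT mice (*S100a3*), 3 higher without IMQ and 2 with a smaller response. The cause was not tested for any of these.

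The main counts over all tested genes were 2633 higher and 2653 lower for the WT response, 2611 higher and 2081 lower for the response under the *Lcn2*-/- label, 405 higher and 481 lower for the labels after IMQ, 1 higher and 1 lower for the labels without IMQ, 253 higher and 145 lower for the difference of responses. With DESeq2, all tested genes gave 1233 higher and 1275 lower for the labels after IMQ, 56 higher and 50 lower for the labels without IMQ and 1055 higher and 870 lower for the difference of responses. With edgeR on the compared mice alone, all tested genes gave 1077 higher and 817 lower for the labels after IMQ and 0 higher and 0 lower for the labels without IMQ. With the replicate block, all tested genes gave 77 higher and 59 lower for the labels after IMQ, 0 higher and 0 lower for the labels without IMQ and 7 higher and 3 lower for the difference of responses. Without the filter, all tested genes gave 3 higher and 3 lower for the labels without IMQ. With a fold above 2 added to the adjusted p, all tested genes gave 1325 higher and 1440 lower for the WT response, 1367 higher and 1161 lower for the response under the *Lcn2*-/- label and 142 higher and 137 lower for the labels after IMQ. With a fold above 2 and an unadjusted p under 0.05, all tested genes gave 1557 higher and 1814 lower for the WT response, 1592 higher and 1550 lower for the response under the *Lcn2*-/- label, 250 higher and 172 lower for the labels without IMQ and 1122 higher and 909 lower for the difference of responses. Leaving out 1 mouse at a time gave 1775 to 2815 higher and 1514 to 2847 lower for the WT response, 1736 to 2346 higher and 971 to 1942 lower for the response under the *Lcn2*-/- label, 0 to 1288 higher and 0 to 1438 lower for the labels after IMQ, 0 to 30 higher and 0 to 11 lower for the labels without IMQ and 2 to 1015 higher and 0 to 912 lower for the difference of responses. The count between the labels after IMQ thus depended strongly on which mouse was left out, and was highest without WT IMQ mouse 2. Directions that turned when 1 mouse was left out all belonged to differences that were not called, with log2 ranges of *S100a10* -0.031 to 0.18 (the WT response) and *S100a10* -0.050 to 0.20, *S100a14* -0.13 to 0.30 (the response under the *Lcn2*-/- label) and *S100a8* -0.15 to 0.56, *S100a9* -0.47 to 0.14, *S100a7a* -0.77 to 0.066 (the labels after IMQ) and *S100a6* -0.10 to 0.033, *S100a10* -0.0027 to 0.26, *S100a11* -0.0044 to 0.14, *S100a16* -0.039 to 0.41 (the labels without IMQ) and *S100a10* -0.13 to 0.12 (the difference of responses).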
